A study of Homo sapiens with 51 samples.

Results

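Loss of the RNA helicase DDX3 was set directly against loss of the deadenylase scaffold CNOT1 in K562 cells, an established human chronic myelogenous leukaemia line with erythroid features. The libraries were chosen by their guide labels alone: 4 labelled sgDDX3 and 4 labelled sgCNOT1, each with 2 cytoplasmic-labelled and 2 nuclear-labelled replicates, 8 of the 51 libraries of the series. All carry a guide for CRISPR interference, in which a repressor held at a promoter lowers transcription of the targeted gene. The guide sgGal4 is named for a yeast gene that human cells lack, and its 4 libraries (2 per labelled fraction) serve as the control guide and show from which side a direct difference comes. Another 4 libraries, labelled sgNUP160, share the fits, so the filter, scaling and estimated spread rest on them too. Their own changes are not given here. The labels give neither the guide sequences nor the time of knockdown, nor whether a genotype is 1 clone or a pool. A mild detergent (NP-40) opened the cells, and a spin through sucrose separated an upper layer, kept as cytoplasm, from a pellet that was washed and kept as nuclei. RNA depleted of rRNA was sequenced with a kit that keeps the strand. The labels do not say whether replicates came from separate cultures, so every p-value measures the spread between these samples only, which may be technical.

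CCR4-NOT is the main cytoplasmic deadenylase of eukaryotic cells: CNOT1 is the scaffold on which the catalytic subunits and the adaptors assemble, and shortening of the poly(A) tail by the complex starts the decay of most mRNAs. Short-lived messages with AU-rich elements, which encode cytokines, growth regulators and immediate early factors, reach the complex through RNA-binding proteins such as the ZFP36 family. DDX3X is a DEAD-box helicase that helps ribosomes start on mRNAs with structured leaders. Both are best known for acting on mRNA in the cytoplasm, the first on its stability and the second on its translation.

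The content of the labelled fractions ran against their names. MALAT1, a long non-coding RNA retained in nuclei, had 21996 to 34091 CPM (counts scaled to a fixed library total) in the 4 cytoplasmic-labelled libraries of both knockdowns, and 1665 to 3549 CPM in the 4 nuclear-labelled ones. NEAT1, another nuclear RNA, had 2818 to 4188 CPM in the cytoplasmic-labelled and 118 to 217 CPM in the nuclear-labelled libraries. Reads outside annotated exons made up 50.4% to 60.5% of the reads in cytoplasmic-labelled libraries and 5.14% to 7.53% in nuclear-labelled ones. Fractions are therefore named here only by their labels, and no direction of transport is read from them. Cytoplasmic-labelled libraries held 3276763 to 10386022 gene counts and nuclear-labelled ones 9322277 to 21365002. The cytoplasmic-labelled sgCNOT1 replicates stood apart from each other: mitochondrially encoded genes took 3.78% of counts in replicate 1 and 1.49% in replicate 2, against 4.83% and 4.84% in the sgDDX3 replicates. The chi-square per degree of freedom between replicates was 27.6 for that pair and 13.01 for the nuclear-labelled sgCNOT1 pair, against 2.04 to 4.25 for the other pairs of the 4 guide genotypes. The cytoplasmic-labelled count of genes and many list counts are given with and without each replicate of the cytoplasmic-labelled sgCNOT1 pair. Other cytoplasmic-labelled results carry no such value.

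The targeted genes were low where their labels say. DDX3X had 59.7 and 59.2 CPM in cytoplasmic-labelled sgDDX3 libraries, 317 and 267 CPM in sgCNOT1 libraries and 269 and 238 CPM in sgGal4 libraries. In nuclear-labelled libraries it had 40.6 and 43.4 CPM with sgDDX3, 280.5 and 309 CPM with sgCNOT1 and 262 and 277 CPM with sgGal4. Its mean in sgDDX3 was thus 20.4% of that in sgCNOT1 in the cytoplasmic-labelled fraction (log2 fold change -2.30 ± 0.17, edgeR adjusted p = 7.13e-07) and 14.3% in the nuclear-labelled one (log2 fold change -2.81 ± 0.09, edgeR adjusted p = 4.26e-20). CPM values from here on are scaled by the trimmed mean of M values (TMM), and every log2 fold change is sgDDX3 over sgCNOT1, with its standard error, unless another pair is named. CNOT1 had 563 and 506 CPM with sgDDX3, 32.3 and 19.5 CPM with sgCNOT1 and 629 and 587 CPM with sgGal4 in the cytoplasmic-labelled fraction, and 714 and 699 CPM with sgDDX3, 44.8 and 44.4 CPM with sgCNOT1 and 825 and 833 CPM with sgGal4 in the nuclear-labelled one. The sgCNOT1 mean was 4.85% and 6.31% of the sgDDX3 mean (log2 fold change 4.34 ± 0.22, edgeR adjusted p = 4.33e-08 and log2 fold change 3.99 ± 0.08, edgeR adjusted p = 1.83e-26). The groups do not overlap for either gene, and the plot of both genes shows each knockdown apart from the other 2 genotypes.

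**Figure D1:**
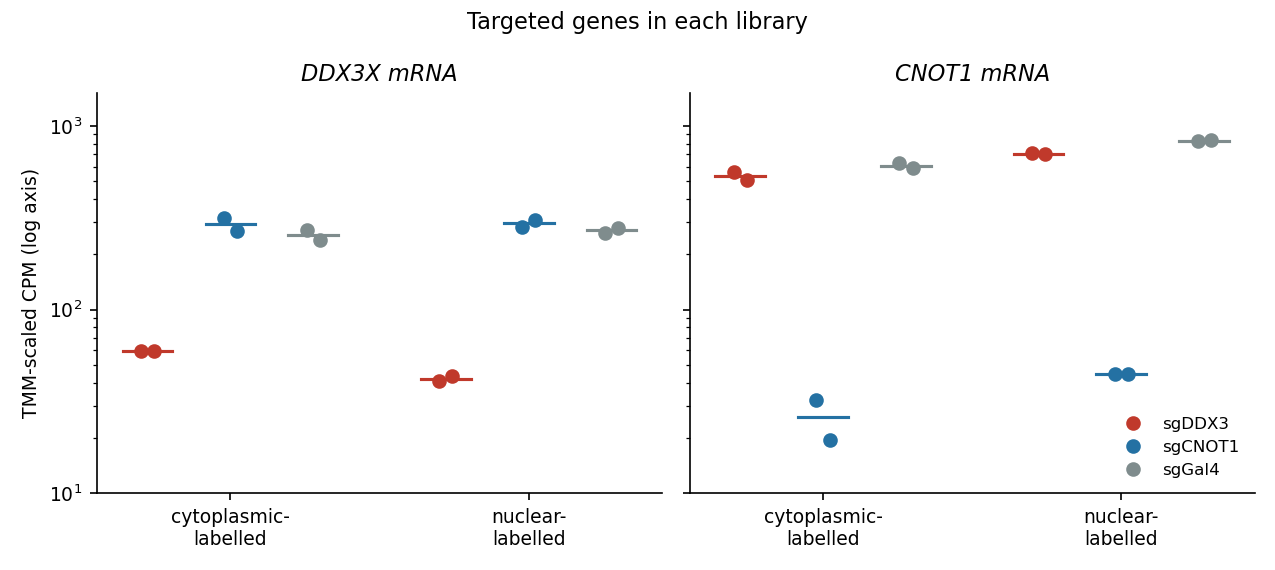
TMM-scaled CPM of DDX3X (left) and CNOT1 (right) on a log axis in every library of sgDDX3, sgCNOT1 and sgGal4, by labelled fraction; points are libraries and bars are means of 2. DDX3X lies between 40.6 and 59.7 CPM in the 4 sgDDX3 libraries and CNOT1 between 19.5 and 44.8 CPM in the 4 sgCNOT1 libraries.

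Across all genes, 2443 of 16091 tested in the cytoplasmic-labelled fraction differed between sgDDX3 and sgCNOT1 (15.2%), 769 higher in sgDDX3 (4.78%) and 1674 lower (10.4%). Fitting the sgDDX3 and sgCNOT1 libraries alone gave 1062 there, 183 higher and 879 lower. In nuclear-labelled libraries, where the biological coefficient of variation was 0.0811 against 0.152, 7892 of 14324 genes differed (55.1%), 3775 higher (26.4%) and 4117 lower (28.7%). In 1 fit of both fractions the nuclear-labelled count was 6182, with 3391 higher and 2791 lower. Called means a Benjamini-Hochberg adjusted p under 0.05 in edgeR's quasi-likelihood test over all genes tested, and these percentages are the background for every list below. The median log2 fold change over all genes was 0.01 in both fractions. Of the genes tested in both, 465 were higher in both (60.5% of the cytoplasmic-labelled and 12.3% of the nuclear-labelled higher calls) and 1050 were lower in both (62.7% and 25.5% of the lower calls). Another 40 were higher in cytoplasmic-labelled and lower in nuclear-labelled libraries (5.20% of the cytoplasmic-labelled higher calls), and 137 the other way (8.18% of the cytoplasmic-labelled lower calls). Against sgGal4, sgDDX3 changed 445 genes in cytoplasmic-labelled and 4480 in nuclear-labelled libraries, and sgCNOT1 changed 3541 and 7110. The cytoplasmic-labelled direct count was 832 without sgDDX3 replicate 1, 785 without sgDDX3 replicate 2, 5068 without sgCNOT1 replicate 1 (2246 higher, 2822 lower) and 3968 without sgCNOT1 replicate 2 (1510 higher, 2458 lower). In such a fit the lone library is assumed to vary like the other groups.

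Subunits of CCR4-NOT itself were mostly lower in sgDDX3 than in sgCNOT1 in the nuclear-labelled fraction. Besides CNOT1, 8 of the 12 listed genes fell, TNKS1BP1 rose, and CNOT4 (log2 difference -0.18 ± 0.12, edgeR adjusted p = 0.2) and CNOT11 (log2 difference -0.17 ± 0.10, edgeR adjusted p = 0.15) were not called. The list median was -0.42. CNOT6L, a catalytic deadenylase subunit, had 103 and 102 CPM in the sgDDX3 libraries, 176 and 233 CPM in the sgCNOT1 libraries and 122 and 137 CPM in the sgGal4 libraries (log2 fold change -0.996 ± 0.11, edgeR adjusted p = 3.63e-09). CNOT8, a catalytic subunit of the other nuclease family, had 61.8 and 67.7 CPM with sgDDX3, 113 and 125 CPM with sgCNOT1 and 77.9 and 79.7 CPM with sgGal4 (log2 fold change -0.87 ± 0.10, edgeR adjusted p = 2.13e-08). Both genes were highest in the sgCNOT1 libraries, and the sgDDX3 libraries were the lowest of the 3 genotypes. CNOT10, which binds the N-terminal part of CNOT1 with CNOT11, had 90.4 and 88.6 CPM with sgDDX3, 175 and 201 CPM with sgCNOT1 and 136 and 116 CPM with sgGal4 (log2 fold change -1.07 ± 0.10, edgeR adjusted p = 1.46e-10). CNOT2, which forms the NOT module with CNOT3, had 53.8 and 57.1 CPM with sgDDX3, 95.6 and 111 CPM with sgCNOT1 and 66.2 and 55.4 CPM with sgGal4 (log2 fold change -0.89 ± 0.11, edgeR adjusted p = 7.94e-08), and CNOT3 changed by -0.50 and CNOT6 by -0.67. The calls of CNOT7 (-0.35) and CNOT9 (-0.26) rest on single libraries: CNOT7 was not called without sgDDX3 replicate 2 (edgeR adjusted p = 0.0877) or sgCNOT1 replicate 2 (edgeR adjusted p = 0.103), and CNOT9 without sgDDX3 replicate 1 (edgeR adjusted p = 0.287). In cytoplasmic-labelled libraries CNOT1 rose and TNKS1BP1 was called lower (log2 fold change -0.53), while the log2 differences of the other 10 genes lay between -0.42 and 0.39; without sgCNOT1 replicate 1, 4 members were called higher and 2 lower. TNKS1BP1, a partner of the complex in vertebrates, was thus called in opposite directions (0.71 in the nuclear-labelled fraction). Its cytoplasmic-labelled call was lost without sgDDX3 replicate 1 (edgeR adjusted p = 0.292), sgDDX3 replicate 2 (0.11) or a sgGal4 library (0.0609 without either).

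Adaptors that bring CCR4-NOT to its targets moved in both directions. Of 21 recruiters and other deadenylases tested in the nuclear-labelled fraction, 10 were lower and 3 higher in sgDDX3, with a median of -0.23. BTG2, an antiproliferative protein that binds the catalytic subunits, had 97.3 and 92.4 CPM in the sgDDX3 libraries, 449 and 402 CPM in the sgCNOT1 libraries and 78.02 and 84.05 CPM in the sgGal4 libraries (log2 fold change -2.17 ± 0.09, edgeR adjusted p = 6.90e-18). ZFP36L1, which binds AU-rich elements, had 84.8 and 83.7 CPM with sgDDX3, 226 and 208 CPM with sgCNOT1 and 93.9 and 93.3 CPM with sgGal4 (log2 fold change -1.36 ± 0.09, edgeR adjusted p = 4.59e-13). ZFP36L2, of the same family, had 163 and 155 CPM with sgDDX3, 325.1 and 332 CPM with sgCNOT1 and 88.00 and 79.1 CPM with sgGal4 (log2 fold change -1.04 ± 0.08, edgeR adjusted p = 1.18e-11). In BTG2 and ZFP36L1 the sgDDX3 values lay near those of sgGal4 and the sgCNOT1 values far above, whereas ZFP36L2 was above sgGal4 in both knockdowns. BTG1, a relative of BTG2, fell by 0.67 on the log2 scale. TOB2, another BTG/TOB protein, rose with 108 and 122 CPM in sgDDX3, 61.6 and 45.5 CPM in sgCNOT1 and 64.1 and 54.6 CPM in sgGal4 libraries (log2 fold change 1.10 ± 0.12, edgeR adjusted p = 6.85e-09), so here the sgDDX3 libraries stood apart. RC3H1 (Roquin-1, which binds stem-loops) rose (0.67), as did TOE1 (0.45, not called without sgDDX3 replicate 2, edgeR adjusted p = 0.229), while its paralog RC3H2 (-0.56), ZFP36 (-0.92), PUM2 (-0.62), TNRC6B (-0.28) and CPEB4 (-0.63) fell. TOB1, TNRC6A, TNRC6C, CPEB1, SAMD4B, PAN2, PAN3 and PARN were not called, at -0.23 to 0.07. In cytoplasmic-labelled libraries BTG2 (log2 fold change -1.59 ± 0.17, edgeR adjusted p = 2.56e-05) and ZFP36L2 (log2 fold change -1.06 ± 0.16, edgeR adjusted p = 3.58e-04) fell, with ZFP36L1 (-0.76) lower and TOB2 (0.83) higher. The calls of ZFP36L1 and TOB2 were lost without sgDDX3 replicate 1 (edgeR adjusted p = 0.162 and 0.0975). Of 19 genes of decapping and 5-prime decay, 4 were higher and 7 lower in the nuclear-labelled fraction. This list lay near the background, with 57.9% called against 55.1% of all genes and a median of 0.02 against 0.01. The exonuclease XRN1 was at -1.10 ± 0.12 and the decapping cofactor DCP1A at -0.96 ± 0.11 (edgeR adjusted p = 1.04e-08 and 1.05e-08). UPF3B went the other way (0.94 ± 0.18, edgeR adjusted p = 4.17e-05). In the cytoplasmic-labelled fraction 2 members were called, both higher, among them SMG1, a kinase of nonsense-mediated decay (0.58), and 0 were called without either sgDDX3 replicate.

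Ribosomal protein mRNAs were higher in sgDDX3 than in sgCNOT1 in the nuclear-labelled fraction. Of 80 cytosolic ribosomal protein genes, 78 rose and 1 fell in the nuclear-labelled fraction, with a list median of 0.84 against 0.01 over all genes. RPL13A had 4542 and 4434 CPM in the sgDDX3 libraries, 1839.5 and 1737 CPM in the sgCNOT1 libraries and 3582 and 3538 CPM in the sgGal4 libraries (log2 fold change 1.33 ± 0.05, edgeR adjusted p = 1.70e-18). RPSA had 1906 and 2003 CPM with sgDDX3, 724 and 701 CPM with sgCNOT1 and 1951 and 1936 CPM with sgGal4 (log2 fold change 1.46 ± 0.06, edgeR adjusted p = 2.16e-18), and RPLP1 had 2264 and 2330.0 CPM with sgDDX3, 849.5 and 828 CPM with sgCNOT1 and 1809 and 1847 CPM with sgGal4 (log2 fold change 1.45 ± 0.06, edgeR adjusted p = 2.16e-18). The sgDDX3 libraries were at or somewhat above sgGal4 for these genes and the sgCNOT1 libraries well below it. Over the list, the median log2 fold change against sgGal4 was 0.07 in sgDDX3 and -0.74 in sgCNOT1. RPL36AL, a copy of RPL36A, was the only member called lower (-0.35 ± 0.12), and not without sgDDX3 replicate 2 (edgeR adjusted p = 0.19). In cytoplasmic-labelled libraries 24 of 80 rose and 0 fell (median 0.49; -0.19 in sgDDX3 and -0.66 in sgCNOT1 against sgGal4). RPS12 had 159 and 158 CPM in the sgDDX3 libraries, 79.4 and 62.7 CPM in the sgCNOT1 libraries and 134 and 119 CPM in the sgGal4 libraries there (log2 fold change 1.15 ± 0.16, edgeR adjusted p = 2.48e-04). That count was 2 and 3 without sgDDX3 replicates 1 and 2, 71 without sgCNOT1 replicate 1 and 29 without sgCNOT1 replicate 2, where the median was 0.23. Reads of ribosomal protein genes can be shared with processed pseudogenes, and how the authors' counting treated them was not tested.

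Host genes of small nucleolar RNAs moved in the same direction: their spliced transcripts are, like ribosomal protein mRNAs, known to begin with a pyrimidine tract and to be read by ribosomes, which sends many of them to nonsense-mediated decay. Of 23 listed, 20 rose in the nuclear-labelled fraction and 0 fell (median 1.14), and against sgGal4 the medians were -0.04 in sgDDX3 and -1.38 in sgCNOT1. SNHG7 had 66.4 and 74.1 CPM in the sgDDX3 libraries, 12.8 and 11.95 CPM in the sgCNOT1 libraries and 38.4 and 30.02 CPM in the sgGal4 libraries (log2 fold change 2.50 ± 0.14, edgeR adjusted p = 6.68e-15). GAS5 had 512 and 499 CPM with sgDDX3, 136 and 145 CPM with sgCNOT1 and 374 and 357 CPM with sgGal4 (log2 fold change 1.85 ± 0.07, edgeR adjusted p = 5.10e-18). SNHG7 was above sgGal4 in sgDDX3 and below it in sgCNOT1, with no overlap between any pair of genotypes. ZFAS1 had 53.02 and 46.01 CPM with sgDDX3, 14.4 and 15.4 CPM with sgCNOT1 and 45.3 and 38.5 CPM with sgGal4 (log2 fold change 1.73 ± 0.14, edgeR adjusted p = 7.91e-12). In cytoplasmic-labelled libraries 8 of 23 rose and 0 fell (median 0.54), 4 without either sgDDX3 replicate and 9 and 13 without sgCNOT1 replicates 1 and 2. GAS5 (log2 fold change 1.13 ± 0.16, edgeR adjusted p = 2.82e-04) and SNHG3 (log2 fold change 1.18 ± 0.16, edgeR adjusted p = 1.37e-04) had the smallest adjusted p among them, and SNHG5 the largest fold change (1.26 ± 0.24).

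The starts of 6 of these genes are shown to place both lists on the genome. They were picked among members that carry a pyrimidine run at the start site and were called in the nuclear-labelled fraction, by small adjusted p. A link between the run and the change was not tested. Each line gives 15 bases before and 15 from the annotated start, 5′ to 3′ on the gene's strand, from RefSeq GRCh38.p14, with the run in capitals.
RPL13A (chr19:49487593-49487622, plus strand): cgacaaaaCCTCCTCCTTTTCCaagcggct
RPSA (chr3:39406705-39406734, plus strand): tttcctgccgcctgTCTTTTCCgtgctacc
RPLP1 (chr15:69452803-69452832, plus strand): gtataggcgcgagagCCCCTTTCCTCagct
SNHG7 (chr9:136728170-136728199, minus strand): gcttcccttctcgTCCTCTgcgtgcgccgg
ZFAS1 (chr20:49278627-49278656, plus strand): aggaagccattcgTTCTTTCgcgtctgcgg
SNHG1 (chr11:62855871-62855900, minus strand): ccggggagattcgTTCTCatttttctactg
A run of at least 5 C or T over the start was present in 46 of the 64 ribosomal protein genes with a window (71.9%; the list holds 80) and in 9 of 19 snoRNA hosts (47.4%; the list holds 23). Of all 27305 windows 2675 had one (9.80%). Letters at an annotated start describe the genome and not the start used in these cells.

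The list of translation factors was split in the nuclear-labelled fraction: of 43 tested, 16 were higher and 16 lower, with a median of 0.04. PABPC1, the cytoplasmic poly(A)-binding protein, had 3037 and 2946 CPM in the sgDDX3 libraries, 1146 and 1268 CPM in the sgCNOT1 libraries and 2632 and 2572 CPM in the sgGal4 libraries (log2 fold change 1.31 ± 0.06, edgeR adjusted p = 1.26e-17). EEF1A1, which delivers aminoacyl-tRNA, had 17879 and 17891 CPM with sgDDX3, 9179 and 9630.3 CPM with sgCNOT1 and 14424 and 14199 CPM with sgGal4 (log2 fold change 0.93 ± 0.04, edgeR adjusted p = 1.35e-17). EEF2, the translocase, had 6215 and 6275 CPM with sgDDX3, 3822 and 3679.5 CPM with sgCNOT1 and 6541 and 6241 CPM with sgGal4 (log2 fold change 0.74 ± 0.05, edgeR adjusted p = 6.02e-14). PABPC4 rose by 1.34 ± 0.07. All 4 were lowest in the sgCNOT1 libraries. EIF5B, which joins the ribosomal subunits, went the other way with 92.6 and 101 CPM in sgDDX3, 187 and 222 CPM in sgCNOT1 and 137 and 140.3 CPM in sgGal4 libraries (log2 fold change -1.08 ± 0.10, edgeR adjusted p = 1.50e-10). In the cytoplasmic-labelled fraction 4 rose and 1 fell, among them PABPC1 (log2 fold change 1.12 ± 0.19, edgeR adjusted p = 0.00115). EEF1A1 (0.78) was not called without sgDDX3 replicate 1 or 2 (edgeR adjusted p = 0.142 and 0.115). Without sgDDX3 replicate 1 or 2 PABPC1 was the only translation factor called there, and without sgCNOT1 replicates 1 and 2 the counts were 15 higher and 2 lower, and 6 higher and 4 lower.

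Replication-dependent histone mRNAs, which end in a stem-loop instead of a poly(A) tail, were mostly higher in sgDDX3 than in sgCNOT1 in the nuclear-labelled fraction. There 37 of 49 tested were higher and 0 lower (median 0.60), and the medians against sgGal4 were -1.09 in sgDDX3 and -1.78 in sgCNOT1. H2AC11 had 622 and 657 CPM in the sgDDX3 libraries, 308 and 296 CPM in the sgCNOT1 libraries and 1183 and 1156 CPM in the sgGal4 libraries (log2 fold change 1.08 ± 0.07, edgeR adjusted p = 2.97e-14). H3C2 had 513 and 506 CPM with sgDDX3, 283 and 297 CPM with sgCNOT1 and 1266 and 1296 CPM with sgGal4 (log2 fold change 0.81 ± 0.06, edgeR adjusted p = 1.09e-11). For both, every sgDDX3 value lay between the sgCNOT1 and the sgGal4 values. H2AC12 (1.26) and H2AC15 (1.51) followed the same order. In cytoplasmic-labelled libraries 11 of 42 tested rose and 0 fell (median 0.54), led by H3C1 (2.07 ± 0.41) and H2BC4 (1.44 ± 0.24). That count was 8 and 4 without sgDDX3 replicates 1 and 2, and 31 and 13 without sgCNOT1 replicates 1 and 2. Histone genes of a family share near-identical sequence, so the split of reads between copies is uncertain.

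Genes of mitosis were mostly lower in sgDDX3 in the nuclear-labelled fraction, while those of G1/S were split. Of 34 genes of mitosis and the spindle, 32 were tested in the nuclear-labelled fraction, where 22 were lower and 2 higher in sgDDX3 than in sgCNOT1 (median -0.46). KIF2C, a kinesin that depolymerizes microtubules, had 136 and 119.9 CPM in the sgDDX3 libraries, 223 and 235 CPM in the sgCNOT1 libraries and 238 and 252 CPM in the sgGal4 libraries (log2 fold change -0.84 ± 0.09, edgeR adjusted p = 1.81e-09). CCNB1, the mitotic cyclin B1, had 79.8 and 80.5 CPM with sgDDX3, 126 and 146 CPM with sgCNOT1 and 135 and 138 CPM with sgGal4 (log2 fold change -0.76 ± 0.09, edgeR adjusted p = 7.57e-08). KIF2C in sgCNOT1 lay slightly below sgGal4, CCNB1 in sgCNOT1 overlapped it, and sgDDX3 lay lower for both. Against sgGal4 the list medians were -0.72 in sgDDX3 and -0.23 in sgCNOT1. The kinetochore genes TTK and NDC80 changed by -1.003 ± 0.13 and -0.96 ± 0.13. BIRC5 (survivin) rose with 99.8 and 106 CPM in sgDDX3, 65.2 and 56.1 CPM in sgCNOT1 and 139 and 141 CPM in sgGal4 libraries (log2 fold change 0.76 ± 0.10, edgeR adjusted p = 1.70e-07). Genes of G1/S and DNA replication showed no common direction: 10 of 37 were higher and 10 lower (median 0.02), and both knockdowns lay below sgGal4, with medians of -0.62 in sgDDX3 and -0.61 in sgCNOT1. Without sgDDX3 replicates 1 and 2 only 5 were called lower, with 10 and 8 higher. The transcription factor E2F1 had 65.6 and 78.9 CPM in the sgDDX3 libraries, 28.4 and 23.3 CPM in the sgCNOT1 libraries and 52.6 and 54.03 CPM in the sgGal4 libraries (log2 fold change 1.47 ± 0.13, edgeR adjusted p = 6.34e-11). CCNE1, cyclin E1, changed the other way (log2 fold change -0.73 ± 0.13, edgeR adjusted p = 1.71e-05). In cytoplasmic-labelled libraries 7 of 37 G1/S genes and 1 of 34 mitotic genes were higher and 0 lower. The G1/S count was 1 and 0 without sgDDX3 replicates 1 and 2, and 16 (with 2 lower) and 13 without sgCNOT1 replicates 1 and 2. The mitotic count was 13 higher without sgCNOT1 replicate 1, and 3 higher and 5 lower without replicate 2.

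Genes of the unfolded protein response, through which the endoplasmic reticulum raises its chaperones, were lower in sgDDX3 than in sgCNOT1 in the cytoplasmic-labelled fraction. Of 21 members, 15 fell and 0 rose (median -0.89), and against sgGal4 the medians were -0.40 in sgDDX3 and 0.45 in sgCNOT1. HSPA5 (BiP), the main chaperone of the compartment, had 669 and 659 CPM in the sgDDX3 libraries, 2715 and 1804 CPM in the sgCNOT1 libraries and 721 and 609.5 CPM in the sgGal4 libraries (log2 fold change -1.77 ± 0.19, edgeR adjusted p = 2.67e-05). In the nuclear-labelled fraction it had 199 and 181 CPM with sgDDX3, 485 and 447 CPM with sgCNOT1 and 165 and 153 CPM with sgGal4 (log2 fold change -1.29 ± 0.08, edgeR adjusted p = 6.55e-14). HSPA5 in sgDDX3 thus overlapped sgGal4 in the cytoplasmic-labelled fraction and lay slightly above it in the nuclear-labelled one, and the sgCNOT1 libraries stood above in both fractions, without overlap. ERN1, which encodes the sensor IRE1, had 63.7 and 63.9 CPM with sgDDX3, 192 and 161 CPM with sgCNOT1 and 101 and 94.99 CPM with sgGal4 in the cytoplasmic-labelled fraction (log2 fold change -1.47 ± 0.16, edgeR adjusted p = 2.50e-05). DNAJB9, a co-chaperone of HSPA5, changed by -2.27 ± 0.33 and -2.02 ± 0.18 in the cytoplasmic-labelled and nuclear-labelled fractions, and SDF2L1 by -1.61 ± 0.18 in the cytoplasmic-labelled one. The cytoplasmic-labelled count was 9 and 8 without sgDDX3 replicates 1 and 2, and 14 and 21 without sgCNOT1 replicates 1 and 2.

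In nuclear-labelled libraries the same list split, with 12 lower and 5 higher (median -0.38), or 3 higher without sgDDX3 replicate 1. HERPUD1, which acts in degradation of proteins from the endoplasmic reticulum, had 57.3 and 58.7 CPM in the sgDDX3 libraries, 182 and 164 CPM in the sgCNOT1 libraries and 84.1 and 76.7 CPM in the sgGal4 libraries (log2 fold change -1.58 ± 0.10, edgeR adjusted p = 1.07e-13). ATF6, a membrane-bound sensor, had 87.1 and 80.6 CPM with sgDDX3, 191 and 227 CPM with sgCNOT1 and 118 and 117 CPM with sgGal4 (log2 fold change -1.32 ± 0.10, edgeR adjusted p = 2.39e-12). CRELD2, a secreted protein of the response, rose there, with 26.8 and 34.8 CPM in sgDDX3, 13.9 and 12.2 CPM in sgCNOT1 and 17.5 and 18.8 CPM in sgGal4 libraries (log2 fold change 1.23 ± 0.16, edgeR adjusted p = 2.18e-07). In the cytoplasmic-labelled fraction CRELD2 had 29.3 and 28.4 CPM with sgDDX3, 45.7 and 56.8 CPM with sgCNOT1 and 43.8 and 40.3 CPM with sgGal4 and fell (log2 fold change -0.83 ± 0.20, edgeR adjusted p = 0.0109). The difference between the fractions was itself called for CRELD2 (ratio change 2.11 ± 0.28, edgeR adjusted p = 2.08e-06), as for 8 other members that were relatively higher in the nuclear-labelled fraction and for HERPUD1, which was relatively lower. Here the ratio change is the direct log2 fold change in the nuclear-labelled fraction minus that in the cytoplasmic-labelled one, tested in 1 fit of both, and its median over 17858 genes was 0.16, which the values printed still contain. Of those genes 1790 were called higher (10.0%) and 840 lower (4.7%). SDF2L1 (1.52 ± 0.23), PDIA4 (0.90 ± 0.21) and HYOU1 (0.85 ± 0.21) were further members. The call of HYOU1 was lost without nuclear-labelled sgCNOT1 replicate 2 (edgeR adjusted p = 0.076), and that of HERPUD1 without any of 6 libraries, namely the 4 sgDDX3 ones, cytoplasmic-labelled sgCNOT1 replicate 2 and nuclear-labelled sgCNOT1 replicate 1 (edgeR adjusted p = 0.0531 to 0.174). Without single libraries the list's ratio count lay between 5 and 13 higher.

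Genes of the ATF4 branch, the integrated stress response, were mostly lower in sgDDX3 in the nuclear-labelled fraction. There 25 of 37 fell and 0 rose (median -0.52; -0.42 in sgDDX3 and 0.14 in sgCNOT1 against sgGal4). Without sgCNOT1 replicate 1 the counts were 26 lower and 6 higher. AARS1, the alanyl-tRNA synthetase, had 498 and 510.3 CPM in the sgDDX3 libraries, 1001 and 885 CPM in the sgCNOT1 libraries and 576 and 577 CPM in the sgGal4 libraries (log2 fold change -0.90 ± 0.07, edgeR adjusted p = 2.80e-12). WARS1, the tryptophanyl-tRNA synthetase, had 404 and 416 CPM with sgDDX3, 858 and 843 CPM with sgCNOT1 and 703 and 710.0 CPM with sgGal4 (log2 fold change -1.05 ± 0.06, edgeR adjusted p = 3.92e-14). CTH, the cystathionine lyase of cysteine synthesis, had 63.4 and 64.7 CPM with sgDDX3, 150.1 and 161 CPM with sgCNOT1 and 112 and 117 CPM with sgGal4 (log2 fold change -1.28 ± 0.10, edgeR adjusted p = 4.30e-12). For these 3 genes the sgDDX3 libraries were the lowest, sgGal4 came next and sgCNOT1 was the highest. In cytoplasmic-labelled libraries 11 of 37 fell and 0 rose (median -0.32; -0.59 in sgDDX3 and -0.12 in sgCNOT1 against sgGal4). SLC7A5, the light chain of the L-type amino acid transporter, had 250.2 and 296 CPM in the sgDDX3 libraries, 762 and 641 CPM in the sgCNOT1 libraries and 727 and 645 CPM in the sgGal4 libraries (log2 fold change -1.36 ± 0.16, edgeR adjusted p = 4.84e-05). Its heavy chain SLC3A2 had 333 and 350.6 CPM with sgDDX3, 849 and 792 CPM with sgCNOT1 and 551 and 525 CPM with sgGal4 (log2 fold change -1.26 ± 0.15, edgeR adjusted p = 6.67e-05). TRIB3, a pseudokinase induced by ATF4, had 56.98 and 63.2 CPM with sgDDX3, 143 and 152 CPM with sgCNOT1 and 137 and 133 CPM with sgGal4 (log2 fold change -1.29 ± 0.16, edgeR adjusted p = 6.42e-05). For SLC7A5 and TRIB3 sgCNOT1 was near sgGal4 and sgDDX3 was low, unlike HSPA5. SLC7A5 was not called in the nuclear-labelled fraction (log2 difference 0.14 ± 0.08, edgeR adjusted p = 0.135), and its ratio change was called (1.55 ± 0.21, edgeR adjusted p = 4.19e-06). The cytoplasmic-labelled count was 5 and 8 without sgDDX3 replicates 1 and 2, 12 (with 2 higher) without sgCNOT1 replicate 1 and 24 without sgCNOT1 replicate 2.

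**Figure D2:**
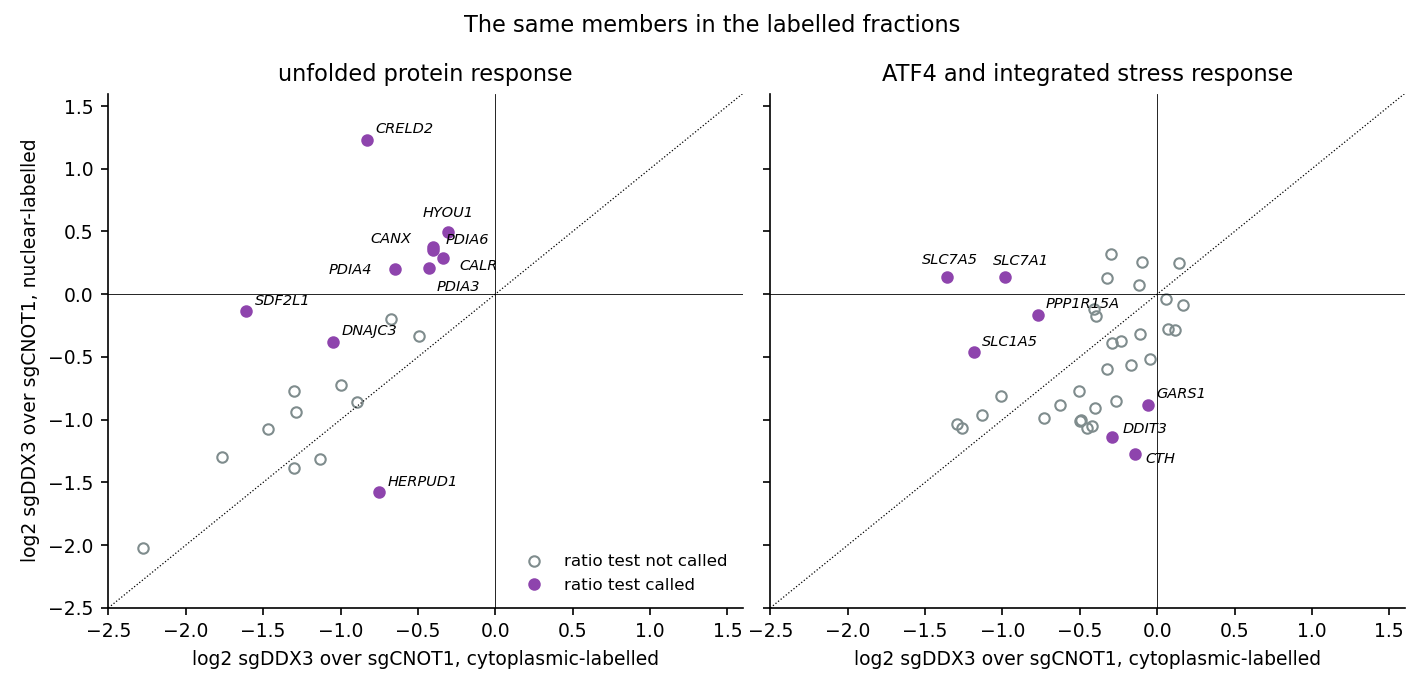
Log2 fold change of sgDDX3 over sgCNOT1 in the cytoplasmic-labelled (x axis) and nuclear-labelled fraction (y axis) for members of the unfolded protein response (left) and of the ATF4 list (right); each point is a gene, the dotted line is equality, and filled points are genes whose ratio change was called. CRELD2 sits at -0.83 and 1.23, and SLC7A5 at -1.36 and 0.14.

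Promoter elements named for these branches are shown for 6 members that carry them, to place the gene lists on the genome (RefSeq GRCh38.p14, 30 bases, 5′ to 3′ on the gene's strand). The first 3 hold a C/EBP-ATF response element (TGATGNAA) and the last 3 an endoplasmic reticulum stress element (CCAAT and CCACG with 9 bases between them), in capitals on either strand.
AARS1 (chr16:70289675-70289704, minus strand): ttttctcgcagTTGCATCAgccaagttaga
SLC3A2 (chr11:62881719-62881748, plus strand): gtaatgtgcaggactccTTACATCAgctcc
NARS1 (chr18:57621804-57621833, minus strand): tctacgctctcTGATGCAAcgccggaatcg
HSPA5 (chr9:125241386-125241415, minus strand): ccttcaCCAATCGGCGGCCTCCACGacggg
XBP1 (chr22:28800598-28800627, minus strand): cgctggCCAATCGCGGAGGGCCACGaccgt
CRELD2 (chr22:49918548-49918577, plus strand): acctctCGTGGCGAACTCGGATTGGgccat
Windows from 250 bases before to 50 after the start were searched on both strands. TGATGNAA was in 7 of the 31 ATF4 list members with a window (22.6%; the list holds 37), against 1003 of all 27305 windows (3.67%). The stress element was in 6 of 20 members of the unfolded protein response with a window (30%; the list holds 21), against 22 of all windows (0.0806%). A match is a description of the letters and not of binding. HSPA5, with the stress element, was lower in sgDDX3 in both labelled fractions, and CRELD2, with the same element, was not.

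Cytosolic heat shock genes were mostly lower in sgDDX3 in the nuclear-labelled fraction, by small amounts. Of 14, 10 fell and 1 rose (median -0.34). HSPA8, the constitutive HSC70, had 519 and 534.2 CPM in the sgDDX3 libraries, 779 and 847 CPM in the sgCNOT1 libraries and 841 and 829.8 CPM in the sgGal4 libraries (log2 fold change -0.63 ± 0.06, edgeR adjusted p = 1.18e-09). HSP90AA1 changed by -0.68 ± 0.07. HSF1, the heat shock transcription factor, was the member called higher (0.24), and was not called without sgDDX3 replicate 1 or 2 (edgeR adjusted p = 0.0684 and 0.161). In cytoplasmic-labelled libraries 3 of 14 fell and 0 rose, with HSPA1B at -1.56 ± 0.25; it shares most of its sequence with HSPA1A, so the split between the copies is uncertain. That count was 2 and 1 without sgDDX3 replicates 1 and 2, 4 (with 3 higher) without sgCNOT1 replicate 1 and 7 (with 1 higher) without sgCNOT1 replicate 2.

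Many immediate early and AU-rich mRNAs were lower in sgDDX3 than in sgCNOT1, and the part of mRNA decay in this was not tested. The list holds 41 genes, and a member was tested when any genotype of the fit had enough counts. The counts and medians can thus include members that passed the filter on their sgCNOT1 counts alone. In a list of immediate early genes and mRNAs with AU-rich elements, 23 of 35 tested fell and 2 rose in the nuclear-labelled fraction (median -0.84; -0.09 in sgDDX3 and 0.71 in sgCNOT1 against sgGal4), and 18 of 34 fell and 0 rose in the cytoplasmic-labelled one (median -0.75; -0.21 and 0.79 in the same order). EGR1, a zinc finger factor of the growth factor response, had 19.5 and 21.3 CPM in the sgDDX3 libraries, 141 and 134 CPM in the sgCNOT1 libraries and 50.95 and 52.5 CPM in the sgGal4 libraries in the cytoplasmic-labelled fraction (log2 fold change -2.75 ± 0.26, edgeR adjusted p = 6.03e-06). In nuclear-labelled libraries it had 24.3 and 22.4 CPM with sgDDX3, 128 and 109 CPM with sgCNOT1 and 56.3 and 54.6 CPM with sgGal4 (log2 fold change -2.35 ± 0.12, edgeR adjusted p = 1.05e-15). EGR1 was thus below sgGal4 in sgDDX3 and above it in sgCNOT1, in both fractions and without overlap. JUNB, an AP-1 subunit, had 14.9 and 16.4 CPM in the sgDDX3 libraries, 49.7 and 53.5 CPM in the sgCNOT1 libraries and 17.5 and 14.2 CPM in the sgGal4 libraries (log2 fold change -1.71 ± 0.21, edgeR adjusted p = 8.06e-05), so that sgDDX3 overlapped sgGal4 and sgCNOT1 lay above it. SGK1, a serum-induced kinase, was above sgGal4 in both knockdowns, with 64.4 and 58.03 CPM with sgDDX3, 179.7 and 191 CPM with sgCNOT1 and 37.5 and 31.7 CPM with sgGal4 in the nuclear-labelled fraction (log2 fold change -1.60 ± 0.10, edgeR adjusted p = 1.47e-13). KLF10 was called higher (0.44) and lost the call without sgDDX3 replicate 1 (edgeR adjusted p = 0.153) or sgCNOT1 replicate 1 (0.126). PIM3, a kinase, was the other member called higher (0.36 ± 0.10). Without nuclear-labelled sgCNOT1 replicate 1 the list had 5 higher and 20 lower. The cytoplasmic-labelled count was 11 without either sgDDX3 replicate, 25 without sgCNOT1 replicate 1 and 21 (with 1 higher) without sgCNOT1 replicate 2.

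NF-κB subunits and targets, from a transcription factor family of immune and stress responses, were mostly lower too. Of 17 tested in the nuclear-labelled fraction 14 fell and 1 rose (median -0.62), and the medians against sgGal4 were 0.41 in sgDDX3 and 1.39 in sgCNOT1. IER3, an early response gene, had 9.09 and 10.1 CPM in the sgDDX3 libraries, 55.7 and 47.5 CPM in the sgCNOT1 libraries and 7.74 and 10.4 CPM in the sgGal4 libraries (log2 fold change -2.42 ± 0.17, edgeR adjusted p = 5.62e-13). NFKB2, which encodes the p100 and p52 subunit, had 25.1 and 20.9 CPM with sgDDX3, 74.1 and 64.1 CPM with sgCNOT1 and 29.2 and 23.5 CPM with sgGal4 (log2 fold change -1.60 ± 0.14, edgeR adjusted p = 5.87e-11). NFKBIA, the inhibitor IκBα, had 92.5 and 98.8 CPM with sgDDX3, 149 and 145 CPM with sgCNOT1 and 59.3 and 48.8 CPM with sgGal4 (log2 fold change -0.62 ± 0.10, edgeR adjusted p = 7.30e-06). The sgCNOT1 libraries were the highest for all 3, and sgDDX3 was near sgGal4 for IER3 and NFKB2 but above it for NFKBIA. CD83, a surface protein of activated immune cells, rose (log2 fold change 0.82 ± 0.20, edgeR adjusted p = 0.00118). In the cytoplasmic-labelled fraction 6 of 16 fell and 0 rose (median -0.82). ICAM1, an adhesion receptor, had 117 and 125 CPM in the sgDDX3 libraries, 435 and 296 CPM in the sgCNOT1 libraries and 150.0 and 137 CPM in the sgGal4 libraries there (log2 fold change -1.59 ± 0.18, edgeR adjusted p = 4.06e-05). The count was 3 and 4 without sgDDX3 replicates 1 and 2, and 9 and 7 without sgCNOT1 replicates 1 and 2, and the nuclear-labelled count of lower members was 9 without sgDDX3 replicate 1. The promoters of 3 members with a κB element, the site NF-κB dimers bind, are shown to place the group on the genome, with the element in capitals (RefSeq GRCh38.p14, 30 bases, 5′ to 3′ on the gene's strand).
NFKBIA (chr14:35404811-35404840, minus strand): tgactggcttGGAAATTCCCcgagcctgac
BIRC3 (chr11:102317275-102317304, plus strand): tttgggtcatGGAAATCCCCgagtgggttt
BCL3 (chr19:44748700-44748729, plus strand): ccggctgcagGGGAAGTCCCggcgcccggc
The element was in 6 of 15 members with a window (40%; the list holds 18) and in 2023 of all 27305 windows (7.41%).

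Interferon response genes showed no single direction: 9 of 21 tested were lower and 6 higher in the nuclear-labelled fraction (median -0.28), with list medians above sgGal4 in both knockdowns (0.62 in sgDDX3 and 0.92 in sgCNOT1). The list holds 34 genes, and log2 fold changes of those tested ran from -2.56 to 1.45 there. The genes printed next were all lower. IFIT3 had 5.26 and 5.53 CPM in the sgDDX3 libraries, 11.1 and 12.6 CPM in the sgCNOT1 libraries and 2.14 and 5.73 CPM in the sgGal4 libraries (log2 fold change -1.12 ± 0.25, edgeR adjusted p = 4.24e-04). IRF1, a transcription factor of the response, had 18.95 and 22.6 CPM with sgDDX3, 38.98 and 32.3 CPM with sgCNOT1 and 18.2 and 24.3 CPM with sgGal4 (log2 fold change -0.78 ± 0.15, edgeR adjusted p = 9.27e-05). BST2 (tetherin) was the only member called in the cytoplasmic-labelled fraction, lower, with 42.97 and 40.6 CPM with sgDDX3, 89.7 and 93.02 CPM with sgCNOT1 and 33.5 and 28.6 CPM with sgGal4 (log2 fold change -1.13 ± 0.18, edgeR adjusted p = 5.68e-04).

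Markers of myeloid lineages were mostly lower in sgDDX3 than in sgCNOT1. Of 30 granulocyte and monocyte markers, 17 were tested in the cytoplasmic-labelled fraction, where 13 fell and 1 rose (median -1.27; 0.41 in sgDDX3 and 1.62 in sgCNOT1 against sgGal4). In the nuclear-labelled fraction 14 of 19 tested fell and 1 rose (median -1.11; 0.13 and 1.18 in the same order). A member was tested when enough counts were present in any genotype of the fit. Members near 0 in both sgDDX3 and sgGal4, such as ANXA1 below, could thus be tested, and could only be called lower. The counts and medians of marker lists here and below can include such members. FCGR2A, a low-affinity receptor for IgG, had 16.8 and 17.4 CPM in the sgDDX3 libraries, 332 and 189 CPM in the sgCNOT1 libraries and 80.7 and 75.96 CPM in the sgGal4 libraries (log2 fold change -3.93 ± 0.29, edgeR adjusted p = 7.13e-07). In nuclear-labelled libraries it had 9.20 and 9.14 CPM with sgDDX3, 115 and 119 CPM with sgCNOT1 and 30.2 and 28.9 CPM with sgGal4 (log2 fold change -3.67 ± 0.14, edgeR adjusted p = 1.52e-18). FCGR2A lay below sgGal4 in sgDDX3 and above it in sgCNOT1. ITGAX (CD11c), an integrin of monocytes and dendritic cells, had 10.97 and 13.2 CPM in the sgDDX3 libraries, 102 and 109 CPM in the sgCNOT1 libraries and 2.60 and 4.29 CPM in the sgGal4 libraries (log2 fold change -3.11 ± 0.23, edgeR adjusted p = 7.13e-07). Here both knockdowns were above sgGal4 and sgCNOT1 was far above sgDDX3. ANXA1, a phospholipid-binding protein abundant in neutrophils and monocytes, had 0.876 and 1.12 CPM in the sgDDX3 libraries, 36.9 and 30.3 CPM in the sgCNOT1 libraries and 0.280 and 0.546 CPM in the sgGal4 libraries in the nuclear-labelled fraction (log2 fold change -5.04 ± 0.28, edgeR adjusted p = 8.05e-15). NCF4, a subunit of the phagocyte oxidase, changed by -1.79 ± 0.26 and -1.74 ± 0.14 in the cytoplasmic-labelled and nuclear-labelled fractions, and CEBPA, a myeloid transcription factor, by -1.29 ± 0.15 in the nuclear-labelled one. CYBB, the catalytic oxidase subunit, was the member called higher: it had 8.11 and 6.81 CPM with sgDDX3, 2.77 and 3.40 CPM with sgCNOT1 and 6.62 and 6.82 CPM with sgGal4 in the nuclear-labelled fraction (log2 fold change 1.29 ± 0.25, edgeR adjusted p = 7.62e-05), and in the cytoplasmic-labelled one its call was lost without sgDDX3 replicate 1 or 2 (edgeR adjusted p = 0.0863 and 0.118). The cytoplasmic-labelled count of lower members was 9 and 7 without sgDDX3 replicates 1 and 2, and 14 and 13 without sgCNOT1 replicates 1 and 2.

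Of the 30 granulocyte and monocyte markers, 11 stayed under 1 CPM in the 4 compared libraries of each fraction. FCN1, LILRB4 and S100A8 were at 0 in both fractions, as were MPO and S100A9 in cytoplasmic-labelled and ELANE in nuclear-labelled libraries. The summed level of the list was 603 to 607 CPM in sgDDX3, 1353 to 1507 CPM in sgCNOT1 and 569 to 574.5 CPM in sgGal4 in the cytoplasmic-labelled libraries. In the nuclear-labelled ones it was 282 to 288 CPM in sgDDX3, 585 to 636 CPM in sgCNOT1 and 263 to 279.7 CPM in sgGal4. The sgCNOT1 libraries thus stood above both other genotypes. In bulk RNA fewer cells of a type and less RNA per cell cannot be told apart.

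Megakaryocyte and platelet markers were mostly lower as well. Of 20, 11 were tested: 6 fell and 0 rose in the cytoplasmic-labelled fraction (median -0.96), and 9 fell and 0 rose in the nuclear-labelled one (median -0.89). TBXA2R, the thromboxane receptor, had 11.9 and 13.5 CPM in the sgDDX3 libraries, 74.95 and 95.2 CPM in the sgCNOT1 libraries and 60.1 and 59.7 CPM in the sgGal4 libraries (log2 fold change -2.74 ± 0.21, edgeR adjusted p = 1.10e-06), so that here sgDDX3 was below sgGal4. GP1BA, a subunit of the von Willebrand factor receptor, had 11.9 and 8.81 CPM with sgDDX3, 72.4 and 40.3 CPM with sgCNOT1 and 8.55 and 7.89 CPM with sgGal4 (log2 fold change -2.46 ± 0.30, edgeR adjusted p = 6.24e-05), and here sgCNOT1 was above sgGal4. F2RL3, a thrombin receptor, changed by -1.89 ± 0.27 and -2.11 ± 0.25 in the cytoplasmic-labelled and nuclear-labelled fractions. CD36, FLI1, GP1BB, PF4, PPBP and SELP were at 0 in the compared libraries of both fractions. Summed, the list stood at 283 to 289 CPM in sgDDX3, 531.5 to 579.7 CPM in sgCNOT1 and 271 to 278 CPM in sgGal4 in the cytoplasmic-labelled libraries, and at 247 to 250, 429 to 514 and 252 to 270.4 CPM for the same genotypes in the nuclear-labelled ones. The count was 3 and 4 without cytoplasmic-labelled sgDDX3 replicates 1 and 2, 6 and 7 without sgCNOT1 replicates 1 and 2, and 6 without nuclear-labelled sgCNOT1 replicate 1.

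Erythroid genes, the lineage K562 cells resemble, did not share a direction. In nuclear-labelled libraries 9 of 25 tested were higher and 6 lower in sgDDX3 (median -0.05), and without sgCNOT1 replicate 2 these counts were 8 and 10. HBZ, the embryonic zeta globin, had 70.9 and 60.3 CPM in the sgDDX3 libraries, 20.8 and 17.7 CPM in the sgCNOT1 libraries and 48.8 and 54.6 CPM in the sgGal4 libraries (log2 fold change 1.75 ± 0.13, edgeR adjusted p = 5.43e-12). ALAD, an enzyme of haem synthesis, had 59.6 and 55.1 CPM with sgDDX3, 22.3 and 19.7 CPM with sgCNOT1 and 35.05 and 39.8 CPM with sgGal4 (log2 fold change 1.44 ± 0.13, edgeR adjusted p = 1.09e-10). SLC25A37, the mitochondrial iron importer mitoferrin, had 292 and 287 CPM with sgDDX3, 175 and 159.8 CPM with sgCNOT1 and 195 and 187 CPM with sgGal4 (log2 fold change 0.79 ± 0.08, edgeR adjusted p = 1.59e-09). For HBZ and ALAD the order was sgDDX3, sgGal4, sgCNOT1 from high to low. These 3 genes were all among the higher ones, while log2 fold changes over the list ran from -0.998 to 1.75 in that fraction. The summed level was 2893 to 2943 CPM in sgDDX3, 2753 to 3090.0 CPM in sgCNOT1 and 2691 to 2801 CPM in sgGal4, so the ranges of both knockdowns overlapped there. In the cytoplasmic-labelled libraries it was 3415 to 3557 CPM in sgDDX3, 3591 to 4576 CPM in sgCNOT1 and 3388 to 3605 CPM in sgGal4, where the knockdowns did not overlap. Adult beta globin HBB and embryonic HBE1 were at 0 in the compared libraries of both fractions. SLC4A1 was called lower in the cytoplasmic-labelled fraction at low counts. It had 0.609 and 0.734 CPM with sgDDX3, 4.05 and 2.94 CPM with sgCNOT1 and 1.12 and 1.03 CPM with sgGal4 (log2 fold change -2.35 ± 0.72, edgeR adjusted p = 0.0398). In cytoplasmic-labelled libraries 3 of 23 were higher and 3 lower, and 0 were called without either sgDDX3 replicate.

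Markers of cell types a K562 culture should lack were summed as well. In the cytoplasmic-labelled libraries 15 lymphocyte markers summed to 42.4 to 44.2 CPM in sgDDX3, 75.9 to 97.2 CPM in sgCNOT1 and 57.5 to 59.8 CPM in sgGal4. Most of that sum was CD7, with 36.6 and 33.8 CPM in sgDDX3, 66.2 and 58.6 CPM in sgCNOT1 and 49.6 and 52.8 CPM in sgGal4. In the same libraries 14 fibroblast and epithelial markers summed to 119 to 136 CPM in sgDDX3, 195 to 219 CPM in sgCNOT1 and 172 to 191.5 CPM in sgGal4. Of this KRT18 gave 38.7 and 34.5 CPM in sgDDX3, 85.9 and 62.9 CPM in sgCNOT1 and 73.1 and 61.4 CPM in sgGal4. Such sums can thus follow single genes and do not count cells. In the nuclear-labelled libraries the lymphocyte sum was 61.3 to 62.2 CPM in sgDDX3, 45.97 to 61.2 CPM in sgCNOT1 and 34.1 to 39.7 CPM in sgGal4, and the fibroblast and epithelial sum was 234 to 239 CPM in sgDDX3, 394 to 444 CPM in sgCNOT1 and 317 to 347 CPM in sgGal4. CD3G, CD8A, MS4A1, COL1A2, CDH1 and PDGFRA were at 0 in both fractions. Few members could be tested: 3 of 4 lymphocyte and 3 of 6 fibroblast and epithelial markers were lower in sgDDX3 and 0 higher in the cytoplasmic-labelled fraction. KRT18, a keratin, was lower in both fractions (-1.03 and -1.32 in the cytoplasmic-labelled and nuclear-labelled ones), the first call being lost without sgDDX3 replicate 2 (edgeR adjusted p = 0.0814). CD3D, a T-cell receptor subunit, had 0 counts in both cytoplasmic-labelled sgDDX3 libraries against 104 in the sgCNOT1 pair, at least 17.2-fold lower against a floor of 3 counts over the group. The sums of these lists were lower in sgDDX3 than in sgCNOT1 in the cytoplasmic-labelled libraries, as were the myeloid sums, and their part in those results was not tested.

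**Figure D3:**
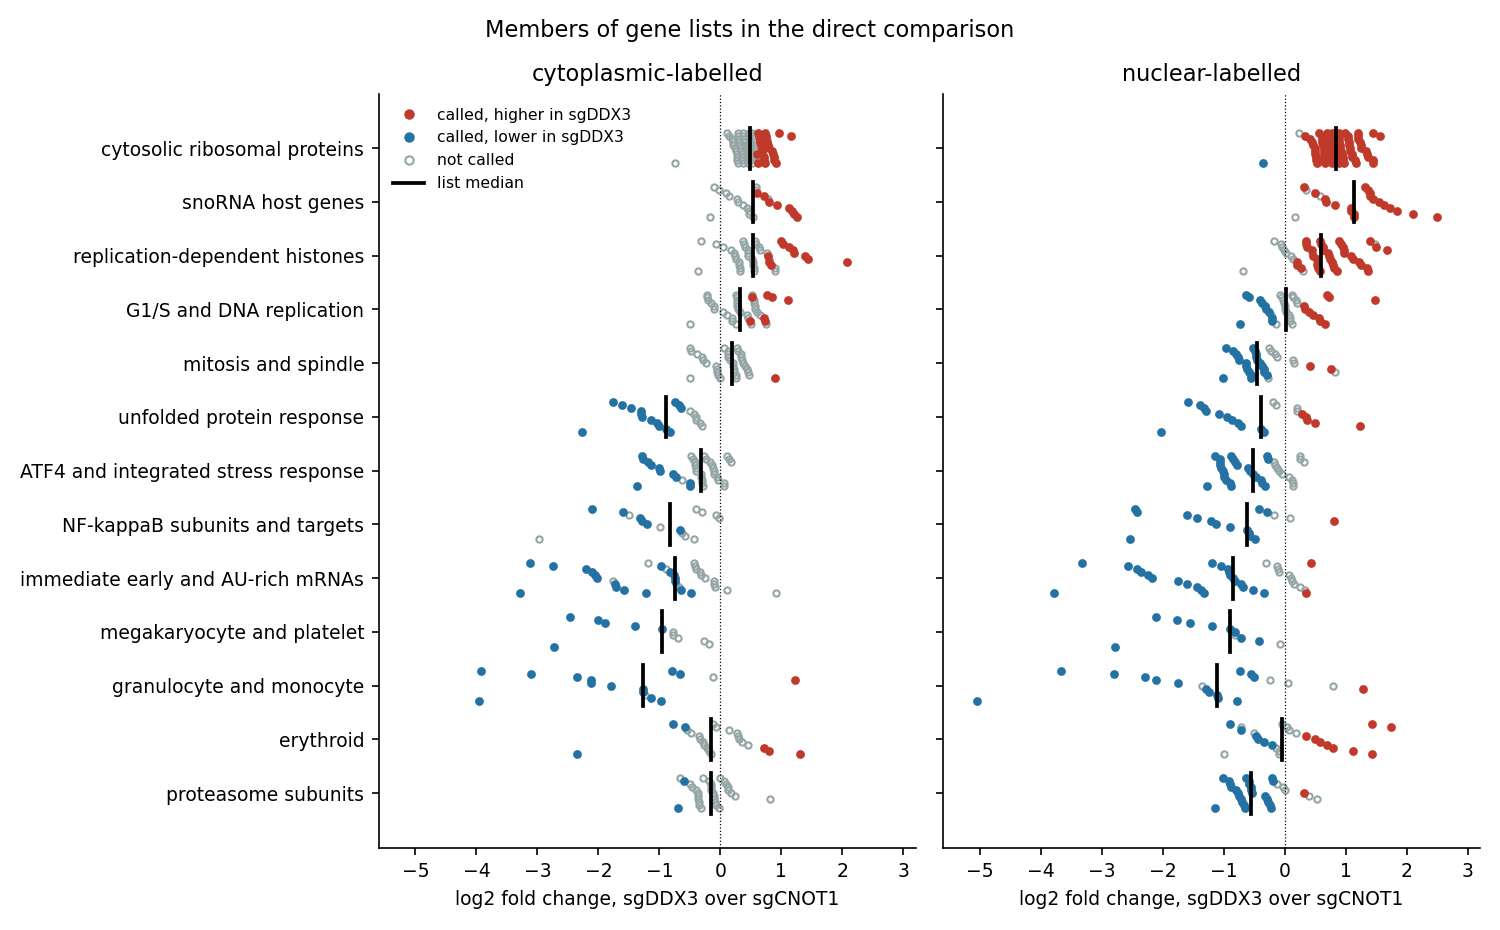
Log2 fold change of sgDDX3 over sgCNOT1 for each tested member of 13 gene lists, in the cytoplasmic-labelled (left) and nuclear-labelled fraction (right); red points were called higher, blue points called lower, open points not called, and black bars are list medians. Ribosomal protein genes and snoRNA hosts lie right of 0 (medians 0.84 and 1.14 in the nuclear-labelled fraction), and granulocyte and monocyte markers left of it (median -1.11).

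Set beside the control guide, the list medians lay on differing sides of 0. For ribosomal protein genes, snoRNA hosts, NF-κB genes and the myeloid lists the sgDDX3 medians lay within 0.41 of 0 in both fractions. The sgCNOT1 medians lay between -1.38 and -0.51 for the first pair of lists and between 1.15 and 1.63 for the others. Histone medians lay below 0 in both knockdowns (cytoplasmic-labelled -0.74 in sgDDX3 and -1.30 in sgCNOT1). ATF4 genes and the proteasome were low in sgDDX3, with nuclear-labelled medians of -0.42 and -0.44, against 0.14 and 0.08 in sgCNOT1. Both sets of values use the same sgGal4 libraries, so they are given side by side and not compared further.

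**Figure D4:**
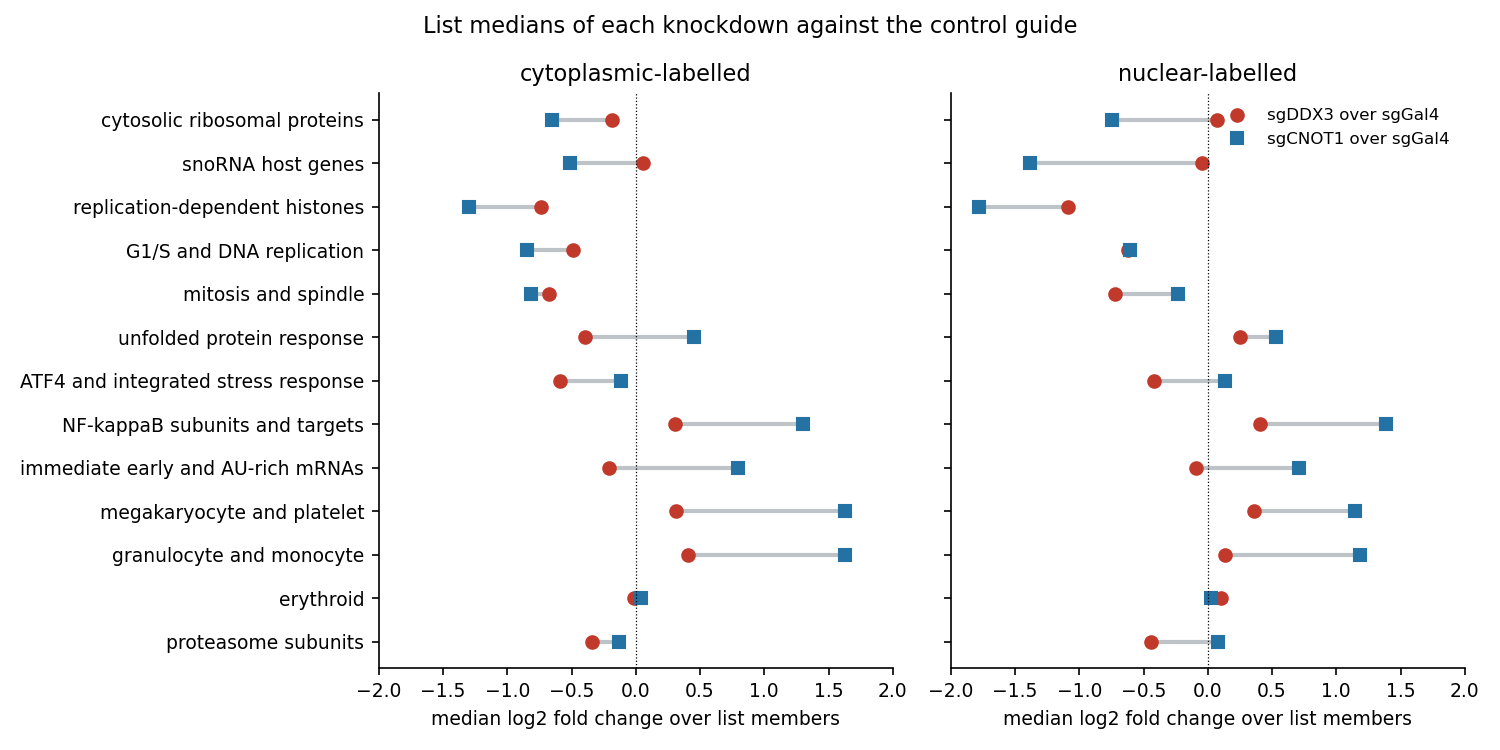
Median log2 fold change over list members of sgDDX3 over sgGal4 (red circles) and of sgCNOT1 over sgGal4 (blue squares), for 13 lists in the cytoplasmic-labelled (left) and nuclear-labelled fraction (right). For snoRNA hosts in the nuclear-labelled fraction the medians are -0.04 and -1.38, and for histones -1.09 and -1.78.

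Proteasome subunits were lower in sgDDX3 in the nuclear-labelled fraction, 25 of 31 with 1 higher (median -0.55). PSMC2, an ATPase of the regulatory particle, had 78.00 and 77.4 CPM in the sgDDX3 libraries, 169.9 and 173 CPM in the sgCNOT1 libraries and 120.0 and 117 CPM in the sgGal4 libraries (log2 fold change -1.14 ± 0.09, edgeR adjusted p = 1.63e-11). PSMD12, of its lid, had 68.7 and 62.5 CPM with sgDDX3, 116 and 149.7 CPM with sgCNOT1 and 99.4 and 95.2 CPM with sgGal4 (log2 fold change -1.01 ± 0.11, edgeR adjusted p = 5.15e-09). In both the order from low to high was sgDDX3, sgGal4, sgCNOT1. In cytoplasmic-labelled libraries 2 of 31 fell, 0 without either sgDDX3 replicate, and 11 (with 1 higher) without sgCNOT1 replicate 2. Of the DEAD-box helicases, DDX3X included, 18 of 31 fell and 5 rose in the nuclear-labelled fraction (median -0.36). DDX21, a nucleolar helicase, had 237 and 249.6 CPM with sgDDX3, 422 and 501 CPM with sgCNOT1 and 441 and 507 CPM with sgGal4 (log2 fold change -0.92 ± 0.08, edgeR adjusted p = 1.16e-10), where sgCNOT1 overlapped sgGal4 and sgDDX3 lay below. DDX5 and DDX17, paralogous cofactors of splicing and transcription, were called higher in the cytoplasmic-labelled (0.65 and 0.65) and lower in the nuclear-labelled fraction (-0.24 and -0.36). Without sgDDX3 replicate 1 the cytoplasmic-labelled calls were lost (edgeR adjusted p = 0.126 and 0.179), as without replicate 2 (0.15 and 0.138). Over the list 3 of 32 rose and 1, DDX3X, fell in that fraction. Of 9 long non-coding RNAs known to stay in nuclei, 5 were higher and 1 lower in sgDDX3 in the nuclear-labelled fraction (3 and 3 without sgCNOT1 replicate 1). NEAT1 was lower in both fractions (-0.58 ± 0.15 in the cytoplasmic-labelled one, where the call was lost without either sgDDX3 replicate, and -0.57 ± 0.10 in the nuclear-labelled one).

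Lists of mitochondrial genes differed in direction in the nuclear-labelled fraction. Of 77 nuclear-encoded genes of oxidative phosphorylation tested there, 43 were higher in sgDDX3 and 12 lower (median 0.37). COX4I1, of cytochrome c oxidase, had 288 and 285 CPM in the sgDDX3 libraries, 163 and 150.2 CPM in the sgCNOT1 libraries and 257 and 273 CPM in the sgGal4 libraries (log2 fold change 0.87 ± 0.08, edgeR adjusted p = 1.91e-10). ATP5F1D, of ATP synthase, had 193 and 205 CPM with sgDDX3, 103 and 88.4 CPM with sgCNOT1 and 176 and 182 CPM with sgGal4 (log2 fold change 1.05 ± 0.09, edgeR adjusted p = 6.19e-11). Both had sgDDX3 near sgGal4 and sgCNOT1 lower. Mitochondrial ribosomal proteins leaned the other way, with 32 of 75 lower and 14 higher (median -0.18), among them MRPL58 (-1.19 ± 0.13) and MRPS22 (-1.15 ± 0.13). Without sgDDX3 replicate 2 these counts were 19 lower and 9 higher. Of 13 mRNAs encoded in mitochondria 4 were called higher in the cytoplasmic-labelled fraction (median 0.72), 13 without sgCNOT1 replicate 1, 4 without sgCNOT1 replicate 2 (median 0.19) and 0 without either sgDDX3 replicate. MT-ND1 had 2534 and 2745 CPM in the sgDDX3 libraries, 1773 and 653 CPM in the sgCNOT1 libraries and 3357 and 2996 CPM in the sgGal4 libraries there, with the sgCNOT1 replicates far apart. In the nuclear-labelled fraction 3 of 13 were higher and 0 lower (median 0.46), and 1 without either sgCNOT1 replicate. Few members of the nuclear-encoded lists were called in the cytoplasmic-labelled fraction: 5 higher and 2 lower of 78 for oxidative phosphorylation and 1 higher and 7 lower of 75 for mitochondrial ribosomal proteins. Without sgCNOT1 replicate 1 these counts were 19 and 4, and 9 and 8, and without sgDDX3 replicate 1 they were 2 and 0, and 0 and 1.

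Genes named ZNF, many of which encode zinc finger repressors with a KRAB domain and have short-lived mRNAs, were more often higher than lower in sgDDX3. Of 397 tested in the nuclear-labelled fraction 206 were higher and 31 lower (median 0.50; -0.04 in sgDDX3 and -0.53 in sgCNOT1 against sgGal4). In the cytoplasmic-labelled fraction 61 of 395 were higher and 7 lower (median 0.36). The 12 and 13 higher calls without sgDDX3 replicates 1 and 2 compare with 120 and 80 without sgCNOT1 replicates 1 and 2, where 24 and 14 were lower. ZNF736 had 115 and 123 CPM in the sgDDX3 libraries, 57.1 and 52.4 CPM in the sgCNOT1 libraries and 134 and 137 CPM in the sgGal4 libraries (log2 fold change 1.12 ± 0.15, edgeR adjusted p = 1.91e-04), and ZNF124 had 113 and 106 CPM with sgDDX3, 33.98 and 41.2 CPM with sgCNOT1 and 87.4 and 84.3 CPM with sgGal4 in the nuclear-labelled fraction (log2 fold change 1.55 ± 0.11, edgeR adjusted p = 6.48e-13). In both genes sgCNOT1 stood below the other 2 genotypes. ZNF628 differed in that sgDDX3 stood above, with 86.9 and 86.7 CPM with sgDDX3, 29.1 and 24.4 CPM with sgCNOT1 and 21.2 and 18.6 CPM with sgGal4 (log2 fold change 1.69 ± 0.13, edgeR adjusted p = 2.62e-12). ZNF385C went the other way (-2.65 ± 0.40 and -1.86 ± 0.25 in the cytoplasmic-labelled and nuclear-labelled fractions). Cholesterol genes were split, 7 of 25 higher and 8 lower in the nuclear-labelled fraction (5 lower without sgDDX3 replicate 2), and 1 higher and 3 lower in the cytoplasmic-labelled one, where leaving out single knockdown libraries gave 0 to 5 higher and 2 to 7 lower.

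Among the largest falls were genes near 0 in sgDDX3 and sgGal4 and well detected in sgCNOT1. A gene could pass the filter on its sgCNOT1 counts alone, and could then only be called lower. ADGRG1, an adhesion receptor, had 0 counts in the cytoplasmic-labelled sgDDX3 libraries, 365 and 164 counts in the sgCNOT1 libraries and 12 in the sgGal4 pair, so it was at least 87.7-fold lower in sgDDX3 than in sgCNOT1 against a floor of 3 counts over the group. CCR7, a chemokine receptor, had 3 counts in sgDDX3 and 241 in sgCNOT1, a ratio of 39.9 (exact 95% counting interval 13.5 to 195) of sgCNOT1 over sgDDX3 after scaling. COL6A3, a collagen chain, had 2 counts in sgDDX3 and 164 in sgCNOT1, a ratio of 40.8 (11.1 to 339). These ratios cover counting error only. C3AR1, the receptor of complement C3a, had 4.27 and 1.22 CPM in the sgDDX3 libraries, 109.5 and 55.2 CPM in the sgCNOT1 libraries and 4.22 and 4.12 CPM in the sgGal4 libraries (log2 fold change -4.98 ± 0.43, edgeR adjusted p = 3.07e-06). S100P, a calcium-binding protein, fell by 5.23 ± 0.59, and SLAMF6, a receptor of immune cells, by 4.90 ± 0.61, on the log2 scale. FCGR1A and its pseudogene FCGR1BP, PTPRN and B3GNT8 complete the 10, and reads of the FCGR1 copies cannot be assigned with certainty. In nuclear-labelled libraries LINC00520, a long non-coding RNA, had 3 counts in sgDDX3 and 331 in sgCNOT1, a ratio of 71.2 (24.1 to 347), and 0 in sgGal4. ANXA1, GBP2 (-4.60 ± 0.27), an interferon-induced GTPase, and AREG (-4.22 ± 0.33), a ligand of the EGF receptor, were among the 10 largest falls there, with ADGRG1, L3MBTL2-AS1, IL21R, C3AR1 and GPAT3.

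The largest rises besides CNOT1 were found in genes of varied function. IQCN had 28.3 and 27.7 CPM in the sgDDX3 libraries, 4.69 and 4.78 CPM in the sgCNOT1 libraries and 2.48 and 3.77 CPM in the sgGal4 libraries in the cytoplasmic-labelled fraction (log2 fold change 2.56 ± 0.31, edgeR adjusted p = 7.25e-05), and AASS, an enzyme of lysine breakdown, had 12.8 and 14.7 CPM with sgDDX3, 3.94 and 2.57 CPM with sgCNOT1 and 3.10 and 2.40 CPM with sgGal4 (log2 fold change 2.04 ± 0.38, edgeR adjusted p = 0.00193). Both were high in sgDDX3 alone. RNF32-AS1 had 24.99 and 28.9 CPM with sgDDX3, 7.68 and 4.96 CPM with sgCNOT1 and 26.5 and 27.3 CPM with sgGal4 (log2 fold change 2.05 ± 0.25, edgeR adjusted p = 7.41e-05) and was low in sgCNOT1 alone. H3C1, SNX24 (2.02) and ZNF14 (1.96) were further rises, and GATA6-AS1 lost its call without sgDDX3 replicate 1 or 2 (edgeR adjusted p = 0.0631 and 0.0581). In nuclear-labelled libraries BAG1, a co-chaperone of HSP70, had 131 and 128 CPM in the sgDDX3 libraries, 20.7 and 18.8 CPM in the sgCNOT1 libraries and 50.99 and 52.1 CPM in the sgGal4 libraries (log2 fold change 2.71 ± 0.11, edgeR adjusted p = 1.26e-17). BSN, a scaffold of presynaptic terminals, had 80.7 and 76.3 CPM with sgDDX3, 13.02 and 12.1 CPM with sgCNOT1 and 34.6 and 37.4 CPM with sgGal4 (log2 fold change 2.63 ± 0.14, edgeR adjusted p = 1.23e-15), and STMN3, a stathmin, had 93.4 and 90.1 CPM with sgDDX3, 19.5 and 12.04 CPM with sgCNOT1 and 66.5 and 65.5 CPM with sgGal4 (log2 fold change 2.50 ± 0.14, edgeR adjusted p = 1.46e-14). For BAG1 and BSN the order was sgDDX3, sgGal4, sgCNOT1 from high to low, without overlap. IGDCC3 (3.45), CRB2 (2.88), BRSK2 (2.82), TMEM198 (2.76), the pseudogene GOLGA2P10 (2.55) and SNHG7 complete the 10.

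Some genes were called in opposite directions against sgGal4. In cytoplasmic-labelled libraries 1 such gene with a mean of at least 5 CPM was higher in sgDDX3: OGDHL, a relative of the oxoglutarate dehydrogenase, had 51.2 and 63.4 CPM in the sgDDX3 libraries, 16.7 and 19.5 CPM in the sgCNOT1 libraries and 29.01 and 31.5 CPM in the sgGal4 libraries (log2 fold change 1.67 ± 0.20, edgeR adjusted p = 6.32e-05). GDF15, a stress-induced cytokine, was lower, with 48.5 and 60.5 CPM with sgDDX3, 551 and 488 CPM with sgCNOT1 and 129 and 134 CPM with sgGal4 (log2 fold change -3.25 ± 0.17, edgeR adjusted p = 5.48e-08). PRF1 (perforin, a pore-forming protein of cytotoxic cells) had 7.01 and 8.57 CPM with sgDDX3, 155 and 129 CPM with sgCNOT1 and 21.1 and 14.9 CPM with sgGal4 (log2 fold change -4.17 ± 0.24, edgeR adjusted p = 1.42e-07), and TNFRSF1B, a receptor of tumour necrosis factor, had 3.35 and 4.65 CPM with sgDDX3, 80.1 and 80.3 CPM with sgCNOT1 and 12.4 and 11.3 CPM with sgGal4 (log2 fold change -4.30 ± 0.26, edgeR adjusted p = 2.25e-07). Each of the last 3 was lowest in sgDDX3, intermediate in sgGal4 and highest in sgCNOT1. FCGR2A and TLR8-AS1 (-4.44) were the other lower ones among the 5 largest. In the nuclear-labelled fraction CDKN1A, which encodes the cell cycle inhibitor p21, had 1.42 and 0.882 CPM in the sgDDX3 libraries, 17.4 and 13.2 CPM in the sgCNOT1 libraries and 3.08 and 3.55 CPM in the sgGal4 libraries (log2 fold change -3.77 ± 0.30, edgeR adjusted p = 8.24e-12). S100P had 4.82 and 5.05 CPM with sgDDX3, 71.6 and 66.5 CPM with sgCNOT1 and 11.7 and 9.82 CPM with sgGal4 (log2 fold change -3.80 ± 0.18, edgeR adjusted p = 1.27e-16), and GPAT3, an acyltransferase of lipid synthesis, had 1.97 and 0.882 CPM with sgDDX3, 22.6 and 22.7 CPM with sgCNOT1 and 3.64 and 4.91 CPM with sgGal4 (log2 fold change -4.05 ± 0.29, edgeR adjusted p = 1.43e-12). TMEM198 had 25.2 and 26.4 CPM with sgDDX3, 3.72 and 3.93 CPM with sgCNOT1 and 12.8 and 14.2 CPM with sgGal4 and lay on the other side, as did BAG1, IGDCC3, CRB2 and BRSK2. Both contrasts share the sgGal4 libraries.

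**Figure D5:**
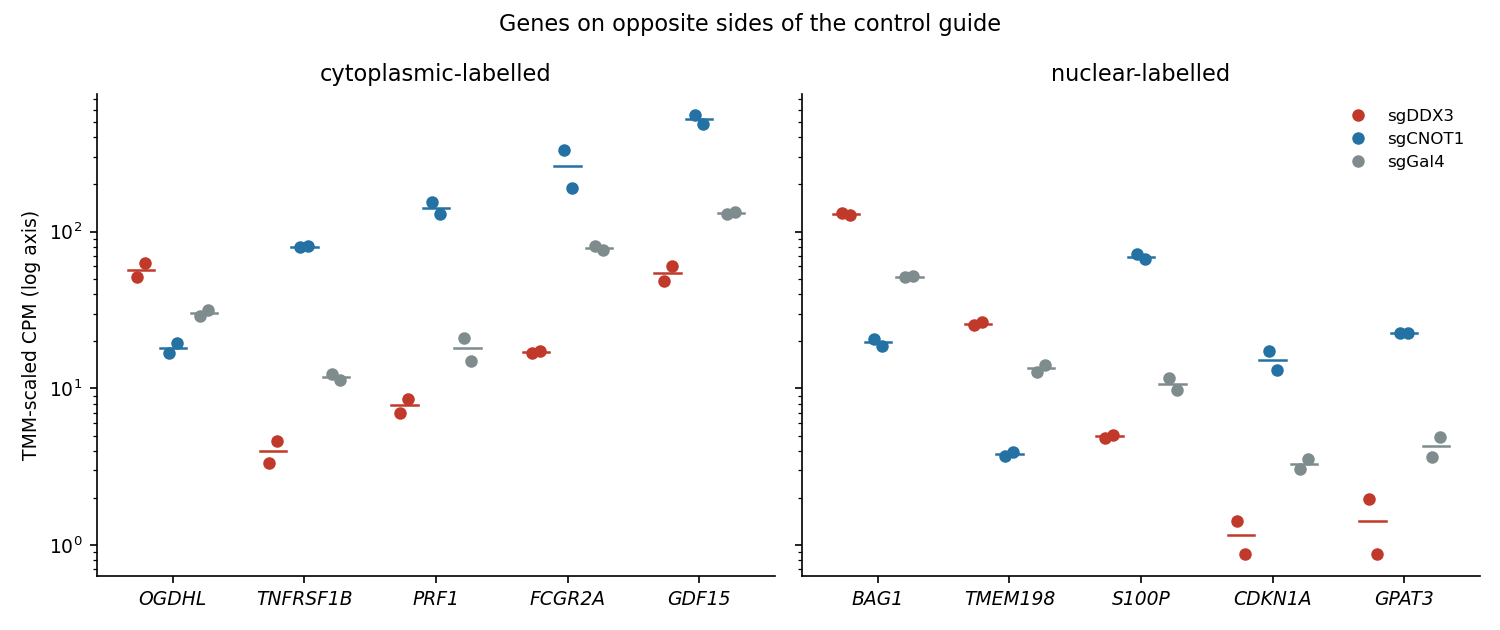
TMM-scaled CPM on a log axis of genes called in opposite directions against sgGal4, in the cytoplasmic-labelled (left) and nuclear-labelled fraction (right); points are libraries and bars are means of 2. In each gene the sgGal4 points lie between those of sgDDX3 and sgCNOT1, as for GDF15 with 48.5 and 60.5 CPM with sgDDX3, 551 and 488 CPM with sgCNOT1 and 129 and 134 CPM with sgGal4.

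The direct difference itself differed between the labelled fractions for 2630 of 17858 genes (14.7%). Of 509 ZNF genes 407 were tested, with 47 ratio changes called higher and 15 lower. That list lay near the background, with 15.2% called against 14.7% of all genes and a median of 0.19 against 0.16. Ribosomal protein genes had 16 of 80 higher and 0 lower (median 0.38), 42 without cytoplasmic-labelled sgCNOT1 replicate 2 and 3 without cytoplasmic-labelled sgDDX3 replicate 1. SnoRNA hosts had 7 of 23 higher and 0 lower, led by SNHG7 (ratio change 2.28 ± 0.29, edgeR adjusted p = 1.62e-06). DEAD-box helicases had 10 of 32 lower and 3 higher, with DDX1 at -0.98 ± 0.21 and DDX10 at -1.04 ± 0.22, and 5 to 14 lower without single libraries. TBXA2R (1.24 ± 0.28), MRPL41 (1.64 ± 0.27) and CD83 (1.85 ± 0.41) were relatively higher, and CNOT6L (-1.06 ± 0.24), CNOT10 (-0.90 ± 0.21), CNOT2 (-0.95 ± 0.23), PSMD12 (-1.19 ± 0.24) and EIF5B (-1.08 ± 0.24) relatively lower in the nuclear-labelled fraction. ALS2CL had 14 and 13 counts in cytoplasmic-labelled sgDDX3 libraries, 291 and 307 in cytoplasmic-labelled sgCNOT1 libraries, 7 and 7 in nuclear-labelled sgDDX3 libraries and 22 and 8 in nuclear-labelled sgCNOT1 libraries (ratio change 3.16 ± 0.72, edgeR adjusted p = 0.00233). RGS3, a regulator of G-protein signalling, had 13 and 14, 76 and 58, 6 and 7, and 207 and 97 counts in the same order (ratio change -2.48 ± 0.63, edgeR adjusted p = 0.00614). ALS2CL was thus low in sgDDX3 mainly in the cytoplasmic-labelled fraction and RGS3 most of all in the nuclear-labelled one. DDX3X (-0.46 ± 0.21, edgeR adjusted p = 0.14) and CNOT1 (-0.30 ± 0.23, edgeR adjusted p = 0.434) were not called. The ratio count was 4590 without cytoplasmic-labelled sgCNOT1 replicate 1, 1149 without nuclear-labelled sgCNOT1 replicate 2, and 1343, 1708 and 1357 without cytoplasmic-labelled sgDDX3 replicate 1 and nuclear-labelled sgDDX3 replicates 1 and 2.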

How the data were processed

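RNA-seq counts of 60664 gene identifiers were analysed as deposited. The unit is raw counts per gene, one file per library with unstranded and 2 stranded columns, of which the reverse-strand column was used because the kit is directional per the labels' protocols. STAR 2.7.5a and GRCh38 are named per the submitters' processing notes, while the sources used here do not name the annotation. Reads that were unmapped, multimapping, outside genes or ambiguous (58.4% to 67.6% in the cytoplasmic-labelled and 25.1% to 32.6% in the nuclear-labelled libraries of both knockdowns) stayed out of library sizes and tests. Symbols came from a gene name table and GENCODE 29 (60652 identifiers matched).

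Counts of 4 guide genotypes (sgDDX3, sgCNOT1, sgNUP160 and sgGal4, 2 libraries each per labelled fraction) were fitted in R 4.3.3 with edgeR 4.0.16 (limma 3.58.1): filterByExpr, TMM scaling, robust quasi-likelihood fit, 1 coefficient per genotype, a fit per fraction and 1 fit of both for the ratio. Adjusted p-values are Benjamini-Hochberg over all genes tested, with a threshold of 0.05. With 2 libraries against 2, an exact permutation test cannot go below p = 0.333, so no single-value test is given. Alternatives were RLE size factors, DESeq2 1.42.0, no filter, a stricter filter, unstranded counts, fewer or more libraries in the fit, a non-robust fit, a replicate block and leaving out each library. The procedure was tested on simulated data in which all genotypes had the same spread, so that test does not cover the wider spread between sgCNOT1 replicates. Intervals and floors cover counting error only, and the reads carry no molecular identifiers.

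Genes were named by rule: DDX3X and CNOT1, the 10 largest called changes per direction and fraction (5 for the ratio) with a mean of at least 5 CPM and groups that do not overlap, the 5 largest called in opposite directions against sgGal4, up to 4 called members per list with the smallest adjusted p and the largest in the other direction, and all members of CCR4-NOT and its recruiters. Some genes the rule selects are not reported here. Values of CRELD2, EPOR and MRPL41 printed for a fraction in which this rule did not select them, and likewise of PIM3, DDX5, DDX17 and SLC7A5, were chosen after they were seen. The comparison, the 28 lists and the tests were chosen with earlier results of these data known. Promoter and start sequences are from RefSeq GRCh38.p14.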

Additional observations from a re-analysis of the deposited data

Results flagged for a closer look

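Of the 2630 genes whose ratio change was called by edgeR's quasi-likelihood test, 18 are flagged here, picked by opposite calls or by size. The ratio change is the nuclear-labelled minus the cytoplasmic-labelled log2 fold change of sgDDX3 over sgCNOT1, adjusted over 17858 genes, whose median was 0.16. Of the genes in the lists, the ZNF list left out, 8 were called in opposite directions in the fractions. Among all 13462 genes tested in both, 40 were higher in cytoplasmic-labelled and lower in nuclear-labelled libraries, and 137 the other way. The 8 list genes were also called in the ratio. That test uses the same values they were picked on, so it adds no separate support. In cytoplasmic-labelled and then nuclear-labelled libraries CRELD2 changed by -0.83 and 1.23 (ratio change 2.11), and MRPL41, a mitochondrial ribosomal protein, by -0.80 and 0.79 (1.64). CD7, a lymphocyte surface protein, changed by -0.83 and 0.66 (1.54), MUC1, a mucin, by -0.87 and 0.67 (1.59), TNKS1BP1 by -0.53 and 0.71 (1.29) and EPOR, the erythropoietin receptor, by -0.58 and 0.35 (0.98). DDX5 changed by 0.65 and -0.24 (-0.84) and DDX17 by 0.65 and -0.36 (-0.95). The ratio call of EPOR was lost without either of 2 libraries (edgeR adjusted p = 0.0758 and 0.0908).

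The other 10 genes had the largest called ratio changes, 5 per direction, among genes with a mean of at least 5 CPM and groups that do not overlap. TAS2R3, a taste receptor, had 43 and 60 counts in cytoplasmic-labelled sgDDX3 libraries and 146 and 120 in sgCNOT1 ones, and 3 and 10 counts in nuclear-labelled sgDDX3 libraries and 0 and 1 in sgCNOT1 ones (ratio change 4.27). CDRT4 (3.78) and CCDC154 (3.28) likewise had 2 and 0, and 6 and 0, counts in the nuclear-labelled sgCNOT1 libraries, so these 3 values depend on a few counts. The calls of TAS2R3 and CCDC154 were lost without single libraries (edgeR adjusted p = 0.0628 and 0.136 for TAS2R3, 0.0565 and 0.172 for CCDC154). ALS2CL (3.16) and B3GNT8 (3.14) were relatively higher in the nuclear-labelled fraction. RGS3 (-2.48), TUBB1 (-1.93), EFCAB7 (-1.92), FAM72A (-1.80) and PIBF1 (-1.75) were relatively lower there. TUBB1, a platelet tubulin, had 6 and 12 counts in cytoplasmic-labelled sgDDX3 libraries and 49 and 16 in sgCNOT1 ones, and 24 and 29 in nuclear-labelled sgDDX3 libraries and 379 and 192 in sgCNOT1 ones. Its call was lost without each of 5 libraries in turn, and that of FAM72A without 1 (edgeR adjusted p = 0.0765).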

How the results depend on the processing

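The number of genes called between sgDDX3 and sgCNOT1 was 2443 in the cytoplasmic-labelled fraction, 7892 in the nuclear-labelled one and 2630 for the ratio. With RLE size factors it was 2439, 7888 and 2953, and with DESeq2 2098, 6820 and 3091. Fitting sgDDX3 and sgCNOT1 libraries alone gave 1062, 7366 and 1374. A single fit of both fractions gave 3405 and, with more higher than lower calls, 6182 (3391 higher, 2791 lower). Testing without the filter gave 2709, 7463 and 1730. Leaving out single libraries gave 785 to 5068, 6125 to 8071 and 1149 to 4590, the sgGal4 libraries and the crossed block below having been added after seeing the data. In the cytoplasmic-labelled fraction each of the 4 knockdown libraries moved the count by over 1.5 times, and the cause was not tested. Across leave-one-out fits, 3134 values of named genes kept their side of the threshold, 347 lost and 23 gained the call. Among values called in either fit 0 reversed. A change of sign in a gene uncalled in both fits was counted as kept. Under the other settings these were 3882, 158 and 20. List medians moved by more than their spread in 151 leave-one-out fits of 672 and in 49 of 756 others.

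The labels do not say that replicate numbers pair the samples. Deviations of same-numbered sgDDX3 and sgCNOT1 libraries correlated at 0.109 and -0.0595 across genes in the cytoplasmic-labelled and nuclear-labelled fractions, and those of sgCNOT1 and sgGal4 at 0.221 in the cytoplasmic-labelled one. With the replicate block the counts were 3184, 7722 and 2218. The sgCNOT1 deviations correlated at -0.216 between fractions, and crossing its numbers in the block gave a ratio count of 3892 (2476 higher, 1416 lower). The depth of 3276763 counts in the shallowest library limits genes of a few CPM.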
